A study of Macaca mulatta with 2 samples.

Results

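The genes described here are 5 nuclear genes of mitochondrial respiration: NDUFA9 and NDUFB8 of complex I, SDHD of complex II, ATP5F1B of the ATP synthase, and CMC1, an assembly factor of complex IV. They were taken by symbol from a table of Ensembl macaque gene names, and all 5 were found among the 7904 genes listed in the deposited tables, of which 724 had a symbol. The annotation release behind the deposited identifiers is not named, so an identifier may have stood for another gene model than the one its symbol names here. Their abundance was measured in peripheral blood mononuclear cells (lymphocytes and monocytes separated from blood) of rhesus macaque, Macaca mulatta. A single RNA sample gave 2 libraries, 1 titled LongInsert and 1 titled Regular, and the labels name no treatment. The labels give no age, sex or strain, and do not say how many animals gave the cells. The protocol attached to both libraries describes a standard Illumina preparation for one run and, for the other, cDNA cut and tagged by a transposase (Nextera) and sized on a gel. The names of the tables and the protocol assign the instruments to the titles in opposite ways, so directions below refer to the titles alone.

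The respiratory chain passes electrons from NADH and succinate to oxygen and uses the energy to pump protons across the inner mitochondrial membrane, and the ATP synthase lets them return to make ATP. Complex I oxidises NADH and complex II oxidises succinate, and complex IV hands the electrons to oxygen. Most subunits are encoded in the nucleus and imported, and the complexes need dedicated assembly factors. Circulating lymphocytes at rest rely largely on this pathway for ATP and add glycolysis when activated.

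The unit is TPM, a transcript abundance scaled by the authors for transcript length and library total, so levels of different genes within a library can be set side by side. The listed genes made up 13.0% of a full library in LongInsert and 15.3% in Regular, and the remainder was not analysed here. Numbers of reads cannot be recovered from this unit, so depth is unknown and no counting interval can be given. With no replicate library there was no test, and none of the differences below has an estimate of its error. Of 35 symbols known from blood cells, 7 were listed, all 7 with a mean of at least 1 TPM, from 6.69 to 580 TPM (LongInsert) and from 8.47 to 719 TPM (Regular). Of 9 symbols of red cells and platelets 2 were listed, the haemoglobin gene HBA1 at 0.0093 and 0.00352 TPM and ITGB3, an integrin of platelets, at 3.29 and 1.77 TPM. CD3E of T cells, MS4A1 of B cells and CD14 of monocytes were not among the genes with a symbol, so the label could not be checked by them. The 35 symbols were chosen with earlier results of these data known, so finding 7 of them at these levels does not check the label either.

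Both complex I genes were lower in LongInsert, the complex II gene and the ATP synthase gene were within 2-fold, and the complex IV assembly factor was abundant in LongInsert and below 0.1 TPM in Regular. NDUFA9, an accessory subunit of complex I in the arm that faces the matrix, was at 41.4 TPM in LongInsert and 3.31-fold higher in Regular, at 137 TPM. NDUFB8, an accessory subunit of the membrane arm of the same complex, was at 101 and 288 TPM, with Regular 2.86-fold higher. Both subunits therefore shared a direction and had folds of similar size.

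SDHD is a small membrane subunit that anchors complex II and takes part in binding ubiquinone. LongInsert gave it 67.0 TPM and Regular 63.5 TPM, a ratio of 1.05, the closest match of the 5 genes. ATP5F1B encodes the beta subunit of the ATP synthase, which carries the catalytic sites. Its level was 242 TPM in LongInsert and, 1.27-fold higher, 307 TPM in Regular, the highest of the 5 in either library. CMC1 binds COX1, the mitochondrially encoded core subunit of complex IV, early in its assembly. In LongInsert it reached 64.5 TPM, close to SDHD there, and in Regular 0.0756 TPM. In Regular 72.6% of all listed genes were below 0.1 TPM, and this value lies among them, though above the median listed gene there, at 0.0434 TPM. No ratio of the TPM values is given for CMC1, and its difference on the log2 scale below depends on the pseudocount, from 3.78 with 5 TPM to 8.52 with 0.1 TPM.

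**Figure D1:**
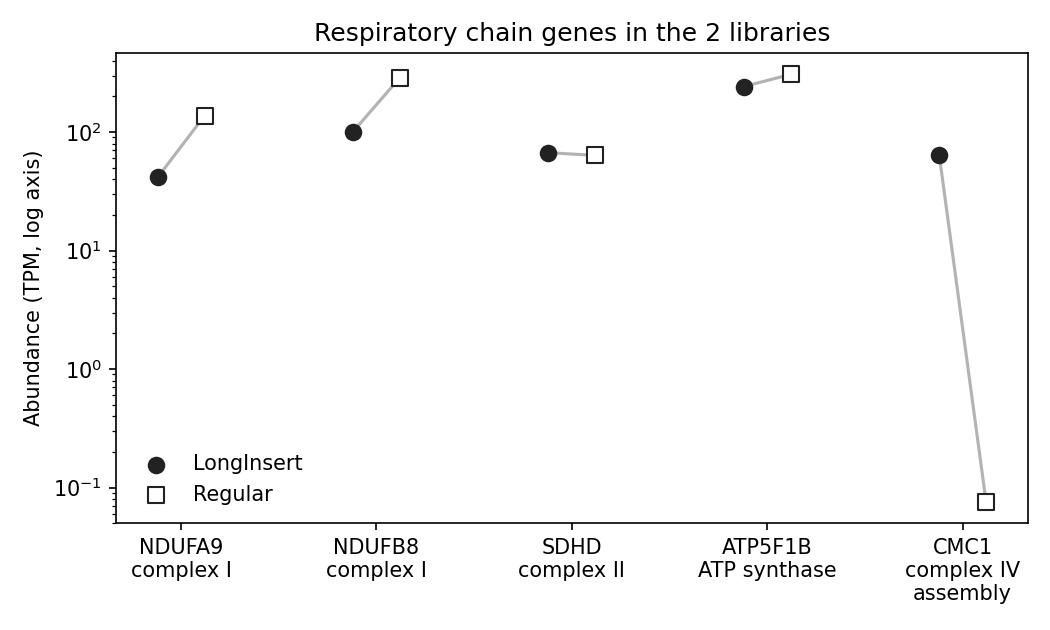
Abundance of the 5 genes in TPM (vertical log axis), with LongInsert as filled circles and Regular as open squares, 1 library each and no error bars. The squares of NDUFA9 and NDUFB8 lie above their circles, those of SDHD and ATP5F1B lie near them, and that of CMC1 lies at 0.0756 TPM against 64.5 TPM.

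On the scale of log2(TPM + 1), where a pseudocount of 1 TPM keeps very low values from giving extreme ratios, the difference between LongInsert and Regular was -1.70 for NDUFA9, -1.51 for NDUFB8, -0.34 for ATP5F1B, 0.08 for SDHD and 5.93 for CMC1. A difference of at least 1 on this scale, or 2-fold, was used as a rule of size. By it 2 of the 5 genes were lower in LongInsert, where 19.8% of the 1310 listed genes with a mean of at least 1 TPM were lower, and 1 of the 5 was higher, where 50.8% of those genes were higher. The other 2 were within 2-fold, as were 29.3% of those genes. Among the 365 genes with a symbol, the kind from which these 5 were taken, 9.59% were lower, 53.7% higher and 36.7% within 2-fold. With 5 genes, chosen with earlier results of these libraries known, the counts say nothing about the pathway as a whole.

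The median difference of the 5 genes was -0.34, beside a median of 1.04 over the 1310 genes and 1.12 over the 365 with a symbol. The typical measured gene was thus higher in LongInsert, and 4 of the 5 respiratory genes lay below that level. As many measured genes lie below a median as above it, and 5 genes are too few to read more from this count. NDUFA9 had one of the lowest values among genes with a symbol: 12 of the 365, itself included, were at or below it, and 22 were at or below NDUFB8. SDHD was in the lower part too, with 89 of the 365 at or below it, although its levels nearly matched. At the other end, 3 of the 365 were at or above CMC1, and 10 of all 1310.

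Since the median gene with a mean of at least 10 TPM was 0.59 higher in LongInsert on the log2 scale (0.97 among those with a symbol), the genes were also read relative to it. Relative to the median of all genes, NDUFA9 was at -2.30, NDUFB8 at -2.10, ATP5F1B at -0.93, SDHD at -0.52 and CMC1 at 5.34. Centred in this way, 25.5% of the 1310 genes were at least 2-fold lower and 38.5% higher. Relative to the genes with a symbol, NDUFA9 was at -2.67, NDUFB8 at -2.48, ATP5F1B at -1.31, SDHD at -0.89 and CMC1 at 4.96. Under that scaling 22.2% of the 365 genes were at least 2-fold lower and 27.9% higher. The direction of the complex I genes and of CMC1 was the same under each scaling, whereas SDHD changed sign and ATP5F1B went from within 2-fold to 2-fold lower under the last.

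**Figure D2:**
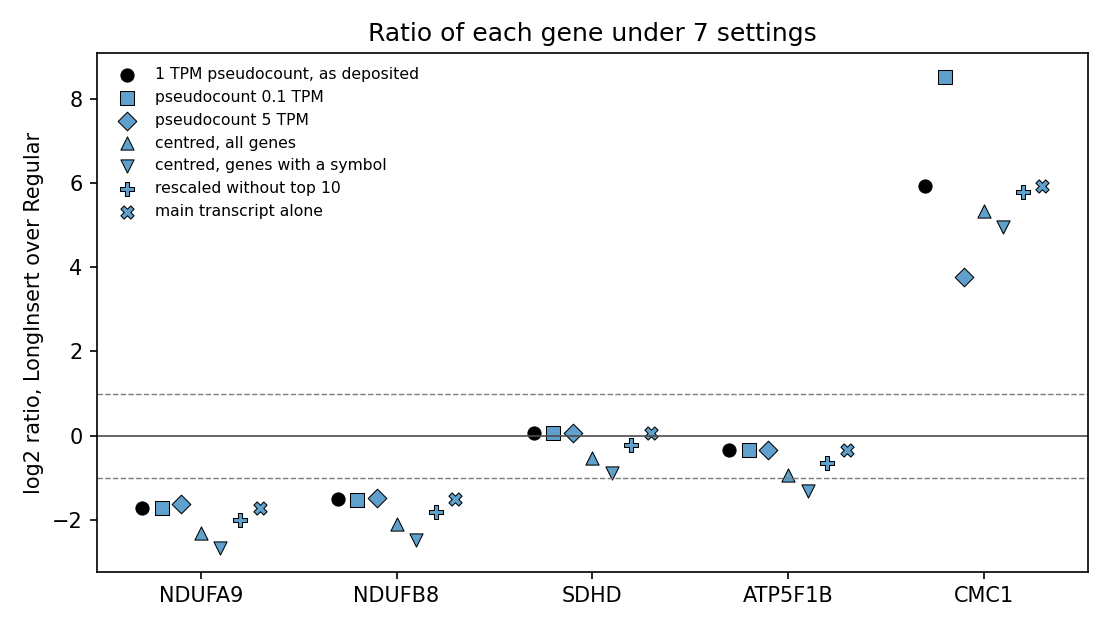
Difference between LongInsert and Regular on the log2 scale for each of the 5 genes (vertical axis), with the value at a pseudocount of 1 TPM in black and 6 other settings in blue; dashed lines mark 2-fold. NDUFA9 and NDUFB8 stay below -1 and CMC1 above 1 in all 7, while SDHD runs from -0.89 to 0.08.

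Genes of like abundance give a closer background. NDUFA9, SDHD and CMC1 had a mean from 10 to 100 TPM. Of the 159 such genes with a symbol, 9.43% were at least 2-fold lower in LongInsert, 55.3% higher and 35.2% within 2-fold. NDUFB8 and ATP5F1B had a mean from 100 to 1000 TPM, where 16.7% of 48 genes with a symbol were lower, 35.4% higher and 47.9% within 2-fold. Without centring, a value 2-fold higher in LongInsert was therefore common at these levels. A value 2-fold lower, as for NDUFA9 and NDUFB8, was less common. The match of SDHD and ATP5F1B was shared by many genes.

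**Figure D3:**
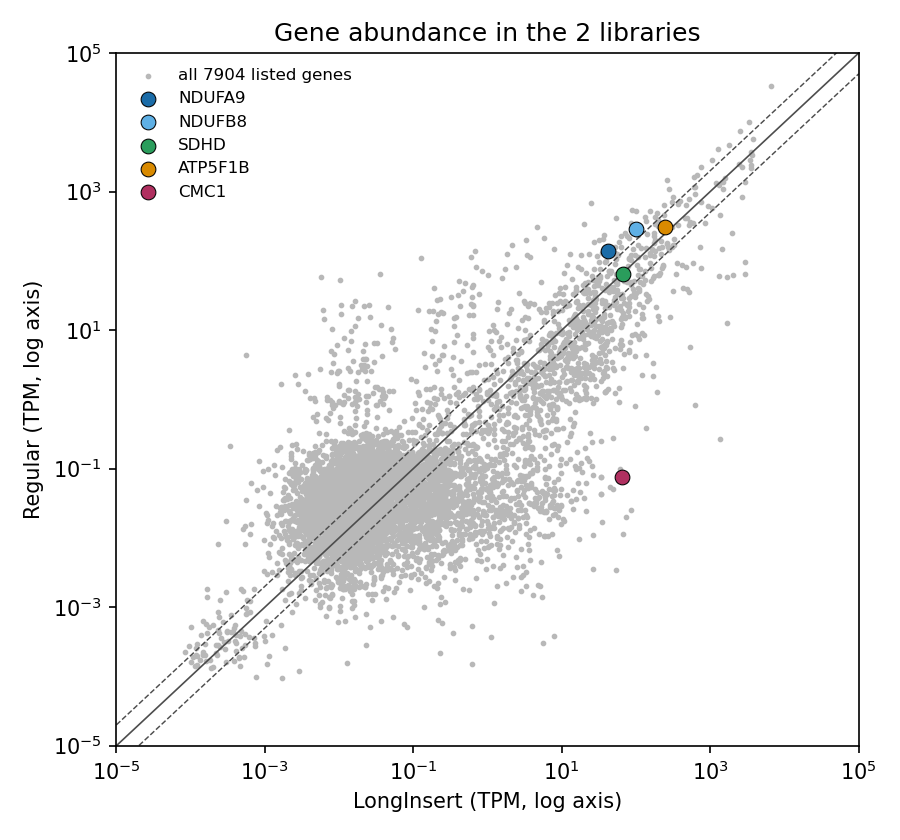
Abundance of all 7904 listed genes (grey) and of the 5 respiratory genes (coloured) in LongInsert (horizontal) and Regular (vertical), both in TPM on log axes; the solid line marks equal values and the dashed lines 2-fold. NDUFA9 and NDUFB8 lie above the upper dashed line, SDHD and ATP5F1B lie between the dashed lines, and CMC1 lies far below them.

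Within a library, the genes ran in the order ATP5F1B, NDUFB8, SDHD, CMC1 and NDUFA9 in LongInsert, and ATP5F1B, NDUFB8, NDUFA9, SDHD and CMC1 in Regular. Of the 10 pairs, 8 kept their order and 2 were swapped, both of them with NDUFA9, which was below SDHD and CMC1 in LongInsert and above them in Regular. Without replicates it cannot be said which neighbours in either order differ, and SDHD and CMC1 in LongInsert (ratio 1.04) and ATP5F1B and NDUFB8 in Regular (ratio 1.06) were nearly equal. By rank among the 7904 genes, ATP5F1B stood at 81 in LongInsert and 66 in Regular, NDUFB8 at 160 and 67, SDHD at 213 and 184, and NDUFA9 at 297 and 114. CMC1 went from rank 219 to rank 2686.

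Ratios between genes of the same library do not depend on how the libraries are scaled to each other. The ratio of NDUFB8 to NDUFA9, the 2 complex I subunits, was 2.43 in LongInsert and 2.10 in Regular, the smallest change of the 10 pairs at 1.16-fold. The ratio of ATP5F1B to SDHD was 3.62 and 4.83, a 1.34-fold change. Ratios that set a complex I gene against a gene of another complex moved further. ATP5F1B was 5.85 times NDUFA9 in LongInsert and 2.24 times in Regular, and it was 2.40 times NDUFB8 in LongInsert and 1.06 times in Regular. NDUFB8 was 1.50 times SDHD in LongInsert and 4.54 times in Regular. SDHD was 1.62 times NDUFA9 in LongInsert and 0.463 times in Regular, a 3.49-fold change.

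Over all 24310 pairs of the 221 genes that had a symbol and averaged at least 10 TPM, the ratio changed by a median of 3.46-fold between the libraries. It changed by no more than that of the complex I pair in 6.53% of pairs, and by no more than that of ATP5F1B and SDHD in 12.7%. For the pairs that set a complex I gene against ATP5F1B or SDHD, the corresponding shares were higher. They were 34.4% for ATP5F1B and NDUFB8, 39.8% for ATP5F1B and NDUFA9, 45.3% for NDUFB8 and SDHD, and 50.3% for SDHD and NDUFA9. Such pairs thus moved about as much as a typical pair or less. These shares describe the 2 libraries, in which each gene enters many pairs, and are no test.

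**Figure D4:**
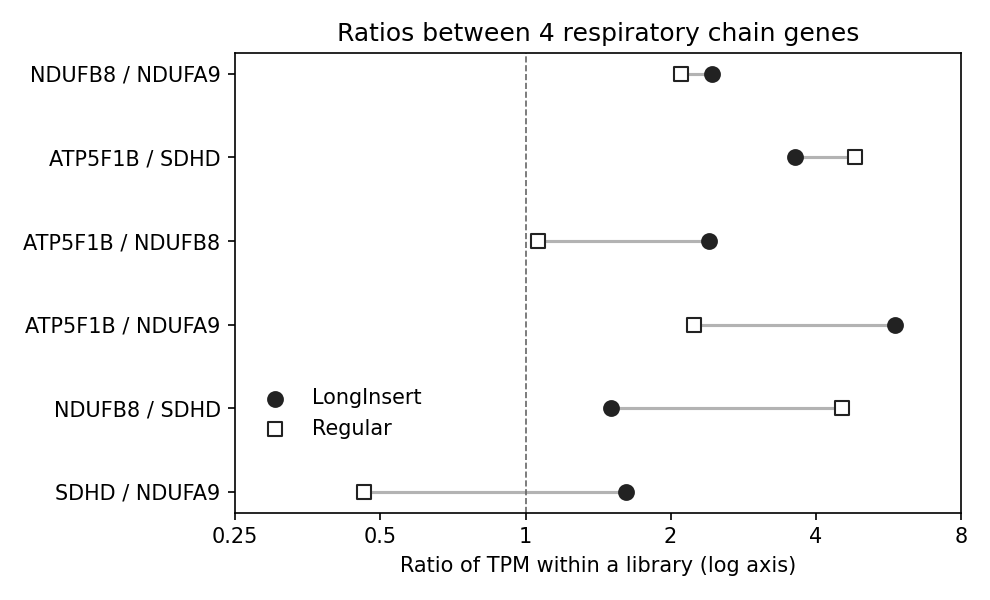
Ratio of the TPM of 2 genes within a library (horizontal log axis) for the 6 pairs of NDUFA9, NDUFB8, SDHD and ATP5F1B, with LongInsert as filled circles and Regular as open squares; the dashed line marks equal levels. The markers of NDUFB8 to NDUFA9 lie close together at 2.43 and 2.10, and those of SDHD to NDUFA9 fall on opposite sides of the line.

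As a share of the sum over the 5 genes, the complex I pair made up 27.6% of 516 TPM in LongInsert and 53.5% of 796 TPM in Regular. ATP5F1B made up 47.0% and 38.5%, and SDHD 13.0% and 7.98%. CMC1 made up 12.5% in LongInsert and 0.0095% in Regular. These shares sum to a fixed total, so a fall in one raises the others. All 5 genes together held 0.396% of the total over listed genes in LongInsert and 0.521% in Regular.

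A single transcript was listed for 4 of the 5 genes, as for 90.5% of all listed genes, so their gene and transcript values are identical. These were ENSMMUT00000029283 for NDUFA9 (ENSMMUG00000020813), ENSMMUT00000021371 for SDHD (ENSMMUG00000015247), ENSMMUT00000001464 for ATP5F1B (ENSMMUG00000001027) and ENSMMUT00000000079 for CMC1 (ENSMMUG00000000055). NDUFB8 (ENSMMUG00000006636) had 2 transcripts. ENSMMUT00000009286 had 100.6 TPM in LongInsert against 288 TPM in Regular, and ENSMMUT00000042724 at 0.162 and 0.0433 TPM. The first thus took 99.8% of the gene in LongInsert and 99.99% in Regular, a change of 0.146 percentage points, and the difference in NDUFB8 lay almost entirely in it. Among 82 genes with 2 listed transcripts and a mean of at least 10 TPM, the share of a transcript changed by a median of 5.71 points. In 11 of them, NDUFB8 included, it changed by no more than 0.146 points, and in 7 by 50 points or more.

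CMC1 was compared with genes of like abundance in LongInsert, in a window chosen after its value was seen. Of 78 listed genes at 50 to 80 TPM in LongInsert, the median in Regular was 24.7 TPM, and 7 genes (8.97%) were below 1 TPM, 6 of them below 0.1 TPM. Among the 26 with a symbol the median was 28.7 TPM, and 2 were below 1 TPM. Over all listed genes, 33 had at least 10 TPM in LongInsert with less than 0.1 TPM in Regular, 5 of them with a symbol, CMC1 included. The opposite pattern was seen in 18 genes, none with a symbol.

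The genes with a symbol nearest to each of the 5 were found by distance in log2(TPM + 1) over both libraries, which rests on 2 values a gene and only says that the levels are alike. Among those near NDUFA9 was ADH5 (57.1 TPM in LongInsert and 119 TPM in Regular, distance 0.50). Nearest to NDUFB8 were RPS27A (107 and 233 TPM, distance 0.32) and TNFSF12 (140 and 247 TPM, distance 0.52). MOB2 (65.5 and 60.2 TPM, distance 0.08) and ASH1L (57.1 and 59.5 TPM, distance 0.24) were nearest to SDHD. RAB7A (249 and 270.0 TPM, distance 0.19) and LDHB (237 and 459 TPM, distance 0.58) were nearest to ATP5F1B. TMEM258 (57.5 and 0.0768 TPM, distance 0.16) and PSMD13 (45.3 and 0.0551 TPM, distance 0.50) were nearest to CMC1.

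The rest of the pathway was looked up in 15 lists of 311 symbols, covering the 5 complexes and their assembly factors, cytochrome c, the mitochondrial ribosome, the TCA cycle, import and carriers, and mitochondrial gene expression. Only 10 of the symbols were matched to a listed gene, the 5 described above included, and 10 lists had no match. No subunit of complex III or IV was among the genes with a symbol, and genes listed without a symbol could not be searched. Complex I had 1 further gene, NDUFA5, a subunit of the matrix arm, with 0.000936 TPM in LongInsert against 0.0913 TPM in Regular. Both values were below 0.1 TPM, so no direction is drawn. NDUFA5 and MRPL45 (0.635 and 0.0223 TPM), both under a mean of 1 TPM, are named outside the rule for naming genes, with their values already known.

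The other 3 genes encode proteins of the mitochondrial ribosome, which translates the subunits encoded in mitochondrial DNA. MRPS15, of its small subunit, had 55.5 TPM in LongInsert against 49.3 TPM in Regular. MRPS31, also of the small subunit, was at 38.5 and 26.1 TPM, and MRPL1, of the large subunit, at 19.4 and 23.1 TPM. All 3 were within 2-fold, with differences of 0.17, 0.54 and -0.24 on the log2(TPM + 1) scale and a median of 0.17. Relative to the median of all genes they remained within 2-fold, at -0.43, -0.05 and -0.84. Relative to genes with a symbol MRPL1 was 2-fold lower, at -1.21, and MRPS15 and MRPS31 were at -0.80 and -0.42.

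Copies of a gene elsewhere in the genome can share its reads. In the RefSeq gene table of the T2T-MMU8v2.0 assembly, 1 other gene, LOC711326, had SDHD as a synonym, and no other gene had the symbol of NDUFA9, NDUFB8, ATP5F1B or CMC1 as one. How reads that match both were assigned is not given in the sources used here, so the level of SDHD is uncertain to that extent. The lookup finds only copies that carry the symbol as a synonym, and the build behind the deposited values is not named. Copies of the other genes may therefore have been missed.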

How the data were processed

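The authors deposited 1 table per library, in which each transcript has a TPM value, per the file headers. Per the submitters' processing notes, CASAVA 1.8.2, Trimmomatic and STAR were used, without stated roles. The series title names Isolator, which estimates isoform abundance. No build, annotation release or quantification setting is named in the sources used here. TPM that is shared among similar transcripts by a model can shift between them, and a complete library sums to 1000000 TPM.

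TPM was summed per gene with pandas 2.3.3 and numpy 2.4.6 in python 3.11.15, and log2 differences used a pseudocount of 1 TPM, whereas folds and ratios between genes used TPM as deposited. With 1 library per title no test was run. Counts of genes used a minimum mean of 1 TPM and a 2-fold difference, and centring used genes with a mean of at least 10 TPM. The calculation was tested on simulated data without noise or low values, which checks its arithmetic only. The members, lists and settings were chosen with earlier results of these data known. Genes named were the 5 members, measured genes of the related lists with a mean of at least 1 TPM, and the 2 nearest genes of each member. A gene that this rule takes is not reported here. No sequences or coordinates were used.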

Additional observations from a re-analysis of the deposited data

How the results depend on the processing

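A value was taken as moved when it crossed the 2-fold line or shifted by more than 1.5 times, since no spread between libraries was available. Each of the 5 genes was recomputed under 6 settings. NDUFA9 moved to -2.30 centred on the median of all genes and to -2.67 centred on genes with a symbol, NDUFB8 to -2.10 and -2.48, SDHD to -0.52 and -0.89, ATP5F1B to -0.93 and -1.31, and CMC1 to 5.34 and 4.96. Centring shifts every gene by the same amount, 0.594 or 0.968. Both exceed the limit of 0.585, which is 1.5 times on the log2 scale, so all 5 moved by construction. CMC1 was also 8.52 with a pseudocount of 0.1 TPM and 3.78 with 5 TPM, which follows from its low value in Regular. Rescaling without the 10 most abundant genes, or using the main transcript alone, moved none of the 5 past those limits, although rescaling took SDHD from 0.08 to -0.22. The main transcript alone could not move the 4 genes with 1 listed transcript, and it holds nearly all of NDUFB8. Genes at least 2-fold higher in LongInsert numbered 666 of 1310 (50.8%) in the main setting. They numbered 266 of 625 (42.6%) with a minimum mean of 10 TPM and 420 of 1310 (32.1%) with a pseudocount of 5 TPM. Among genes with a symbol only they numbered 196 of 365 (53.7%). Lower genes numbered 260 of 1310 (19.8%), against 143 of 625 (22.9%) with that minimum and 35 of 365 (9.59%) for genes with a symbol only. The minimum and the restriction to symbols test fewer genes. With a pseudocount of 1 TPM, no related gene other than the 5 was 2-fold apart, except under centring on genes with a symbol. That setting was added after seeing the data. Among related genes with a mean of at least 1 TPM, it left 1 lower (MRPL1). NDUFA5, under that mean, was at -1.09 in the same setting. The related lists were not recomputed with a pseudocount of 0.1 or 5 TPM. In TPM as deposited, MRPL45 (0.635 against 0.0223 TPM) and NDUFA5 (0.000936 against 0.0913 TPM) were more than 2-fold apart. No replicate could be left out. No paired analysis was possible because each title has 1 library. Depth is unknown, so the low value of CMC1 cannot be told from too few reads.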
